A study of Mus musculus with 12 samples.

Results

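The matrix metalloproteinases (MMPs), the ADAMTS proteases and their tissue inhibitors (TIMPs) were followed in total mouse colon by RNA sequencing. Members were the gene symbols that begin with Mmp, Timp or Adamts followed by a digit, which gave 44 of the 30263 genes in the colon tables. Of these, 38 were expressed, with a mean of 10 or more raw counts over the 6 colon libraries. The tables of tumor CD8+ T cells, which list 357 genes, held 0 members, so every value here comes from colon. The colon groups were S1PR4 KO and WT mice on a C57BL/6 background, with 3 libraries each. Both groups received azoxymethane (AOM, 10 mg/kg), a carcinogen, on day 0, and dextran sulfate sodium (DSS, 0.5% in drinking water), which injures the colon lining. DSS was given on days 1 to 6, 21 to 27 and 47 to 52, and colons were taken on day 84. The labels speak of 2 rounds of AOM with DSS and do not date a further AOM dose. S1PR4 is a sphingosine 1-phosphate receptor of lymphoid and myeloid cells. The labels give neither age nor sex, do not say in which cells the gene is lost, and do not say whether each library is a separate animal. The p-values therefore measure only the spread between these libraries.

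MMPs are zinc proteases that are made as inactive precursors and cut collagens, other matrix proteins and cell surface proteins. Most ADAMTS enzymes are secreted and cut proteoglycans or process procollagens, while TIMPs bind the active site of these proteases and block it. In the colon they are made by fibroblasts, leukocytes, endothelium and epithelium, and several MMPs are strongly induced in inflamed or tumor-bearing mucosa. In bulk tissue, more cells of a type and more RNA per cell cannot be told apart.

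S1pr4 itself had 154, 162 and 118 raw counts in the libraries labelled KO, against 61, 47 and 25 in those labelled WT, so it goes against the labels. KO and WT below name libraries by their labels only, and every direction rests on them. Library totals ran from 7304082 to 8652561 counts. KO replicates 2 and 3 and WT replicate 1 held many Xist reads and between 0 and 4 reads of 4 Y-linked genes, while the other 3 libraries held 1984 to 2378 such reads. The set without Y-linked reads has WT replicate 1 as its only WT library, and the set with them has KO replicate 1 as its only KO library. WT replicate 1 also stood apart in keratins of squamous epithelium, with a summed level of 412.5 CPM (counts scaled to library size with TMM factors), against 11.0 to 42.1 CPM in the other 5 libraries. Epithelial markers were present at similar summed levels, from 1093 to 1164 CPM in KO and from 1045 to 1190 CPM in WT. These markers have many counts per exon base, such as 3485 counts on 4574 bases for Cdh1 in KO replicate 1. Differences may be compressed in that range, as described below, so similar sums do not show equal epithelial content.

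Among the 44 members, 9 MMP genes form a cluster on chromosome 9 of GRCm38 between 7272514 and 7699585, and 5 of them were expressed (Mmp13, Mmp12, Mmp3, Mmp10 and Mmp7). Mmp1a, an annotated gene that shares sequence with Mmp1b, is not among the members and is not counted here. Promoter windows from RefSeq (GRCm38.p6, 250 bases before to 50 after an annotated start) were matched by symbol for 30 of the 44 members. The stretches below are shown because these 5 genes reached their highest level in the same library and shared a pair of motifs. Each runs 5' to 3' on the plus strand from 150 bases before to 25 after the start, with the AP-1 motif TGANTCA and the TATA motif TATAAA in capitals.
Mmp13, chr9:7272364-7272538: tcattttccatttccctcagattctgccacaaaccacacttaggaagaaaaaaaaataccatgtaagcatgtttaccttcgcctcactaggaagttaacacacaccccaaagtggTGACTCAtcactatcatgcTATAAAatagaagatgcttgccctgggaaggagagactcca
Mmp12, chr9:7347224-7347398: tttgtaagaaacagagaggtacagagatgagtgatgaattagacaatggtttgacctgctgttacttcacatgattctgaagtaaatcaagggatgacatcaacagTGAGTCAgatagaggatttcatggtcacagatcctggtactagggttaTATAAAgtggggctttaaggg
Mmp3, chr9:7445672-7445846: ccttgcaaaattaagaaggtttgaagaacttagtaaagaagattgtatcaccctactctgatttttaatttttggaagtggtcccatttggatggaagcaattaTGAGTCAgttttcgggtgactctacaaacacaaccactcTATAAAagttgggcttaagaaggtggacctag
Mmp10, chr9:7502192-7502366: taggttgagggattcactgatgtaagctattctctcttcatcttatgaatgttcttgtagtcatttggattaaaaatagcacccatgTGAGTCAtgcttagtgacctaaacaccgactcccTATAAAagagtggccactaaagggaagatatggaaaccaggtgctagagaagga
Mmp7, chr9:7691940-7692114: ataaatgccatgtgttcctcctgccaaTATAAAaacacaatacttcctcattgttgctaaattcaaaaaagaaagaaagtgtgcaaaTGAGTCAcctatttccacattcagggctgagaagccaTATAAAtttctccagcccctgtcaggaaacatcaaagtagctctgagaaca
AP-1 is the dimer of FOS and JUN proteins that binds this motif, and its site in promoters of human and rodent collagenase and stromelysin genes is a textbook example of induction by cytokines.

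TGANTCA, which reads the same on both strands, was present in 7 of the 9 cluster genes, including all 5 expressed ones, and in 0 of the 21 other members with a window. Among all 32851 RefSeq windows of this length it was present in 7.81%. Counted on both strands, TATAAA was found in 8 of 9 cluster genes, in 1 of 21 other members (Adamts1) and in 13.6% of all windows. Both motifs together were present in 7 of 9 cluster genes and in 1.54% of all windows. A member gene counts here if any of its windows held the motif, while the background counts single windows. Members without a window, among them Mmp9, Mmp2 and Adamts15, were not searched. The distance between the motifs was 12 bases in Mmp13, 27 in Mmp10, 30 in Mmp7, 32 in Mmp3 and 41 in Mmp12, where the TATA motif lies after the start. RefSeq lists a second start for Mmp7 and for Mmp12, and those windows held neither motif. For Mmp12 the window without motifs holds the annotated gene start (7344381), and the printed stretch lies downstream of it. Mmp7 holds a further TATAAA upstream of its AP-1 motif, also in capitals. The T cell factor motif ATCAAAG, searched on both strands, was found in 1 of 30 members, Mmp7, and in 3.73% of all windows. These matches describe letters in the windows and not bound sites.

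**Figure D1:**
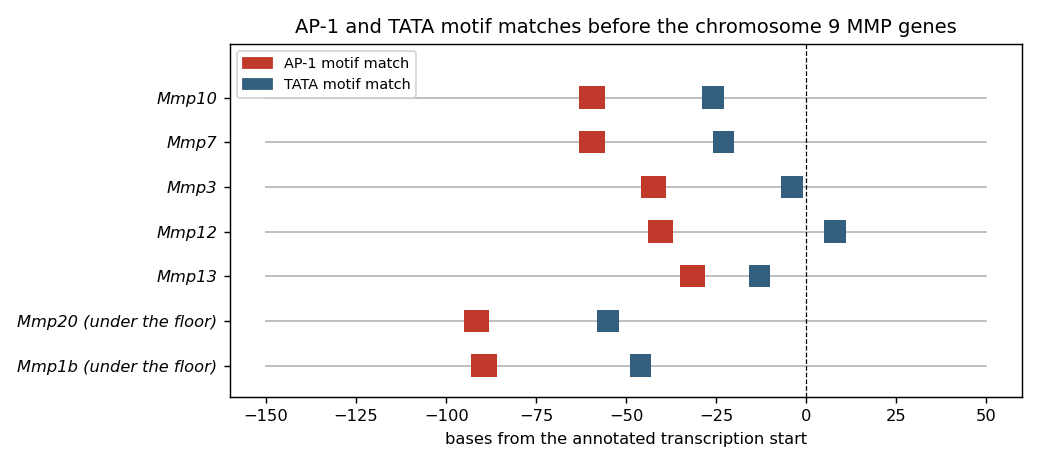
Positions of the AP-1 motif (red) and the nearest TATA motif after it (blue) in the 7 windows of chromosome 9 MMP genes that hold both, in bases from the annotated transcription start (dashed line). The AP-1 match starts 35 to 95 bases before the start, with the TATA match 12 to 41 bases further on.

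The 5 expressed cluster genes all had a higher mean in KO, and all 5 had their highest level in KO replicate 2. None passed edgeR's quasi-likelihood test. Mmp13 (ENSMUSG00000050578, chromosome 9, 7272514 to 7283331) is collagenase 3, which cuts fibrillar collagens. It stood at 14.0, 105.8 and 13.9 CPM in KO and at 39.0, 11.8 and 13.0 CPM in WT. Only KO replicate 2 and WT replicate 1 were high, so the groups overlapped. The log2 difference was 1.06 ± 0.94 (SE, edgeR adjusted p = 0.859), and it was -0.61 without KO replicate 2.

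Mmp10 (ENSMUSG00000047562, chromosome 9, 7502352 to 7510240), stromelysin 2, cuts a broad range of matrix proteins and activates other MMP precursors. It stood at 2.81, 73.1 and 17.6 CPM in KO and at 30.2, 12.2 and 3.0 CPM in WT, which is a 22.3-fold range across the libraries after adding 0.5 CPM. Its lowest value was also a KO one. The log2 difference was 1.04 ± 1.20 (SE, edgeR adjusted p = 0.880) and -0.57 without KO replicate 2. Mmp3 (ENSMUSG00000043613, chromosome 9, 7445822 to 7455975), stromelysin 1, stood at 3.57, 16.0 and 2.59 CPM in KO and at 10.3, 3.34 and 4.0 CPM in WT. Without KO replicate 2, its difference of 0.33 ± 0.80 (SE, log2, edgeR adjusted p = 0.943) became -0.93. Reads of Mmp3 and Mmp10 may be shared, since 8.39% of the 50-base stretches of Mmp3 transcripts occur in other genes, mainly Mmp10.

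Mmp7 (ENSMUSG00000018623, chromosome 9, 7692090 to 7699585), or matrilysin, is an epithelial protease that in mice processes antimicrobial peptides of Paneth cells and is a target of WNT signalling in intestinal adenomas. It stood at 8.94, 83.3 and 78.3 CPM in KO and at 25.2, 28.4 and 3.38 CPM in WT. KO replicates 2 and 3 lay above every WT library, and KO replicate 1 lay below 2 of the WT libraries. The log2 difference was 1.58 ± 0.99 (SE, edgeR adjusted p = 0.829). Mmp12 (ENSMUSG00000049723, chromosome 9, 7344381 to 7369499), the macrophage elastase, followed the same order among KO libraries with 4.98, 22.4 and 18.8 CPM, against 5.8, 6.15 and 2.88 CPM in WT. Its difference of 1.63 ± 0.60 (SE, log2) had an unadjusted p of 0.0336 (edgeR adjusted p = 0.829). When single libraries were left out it ran from 1.26 to 2.05, and that of Mmp7 from 1.10 to 2.09, while with Y-linked reads as a covariate they were 1.01 for Mmp12 and 0.51 for Mmp7.

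Mmp9 and Timp1 lie on other chromosomes and ranked KO replicate 2 first as well. Mmp9 (ENSMUSG00000017737, chromosome 2, 164940780 to 164955850), gelatinase B, is stored in neutrophil granules and made by macrophages. It stood at 7.28, 58.5 and 37 CPM in KO and at 26.0, 11.1 and 3.88 CPM in WT, with a log2 difference of 1.32 ± 0.90 (SE, edgeR adjusted p = 0.829). Leaving out KO replicate 2 gave 0.69, and leaving out WT replicate 1 gave 2.21. Timp1 (ENSMUSG00000001131, chromosome X, 20870166 to 20874735), an inhibitor that inflamed tissue induces and that blocks MMP9, stood at 5.23, 17.1 and 13.3 CPM in KO and at 9.82, 4.81 and 6.00 CPM in WT. Its difference was 0.78 ± 0.49 (SE, log2, edgeR adjusted p = 0.829), and from 0.43 to 1.14 when single libraries were left out. For both genes KO replicates 2 and 3 lay above every WT library, while KO replicate 1 lay within the WT range.

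**Figure D2:**
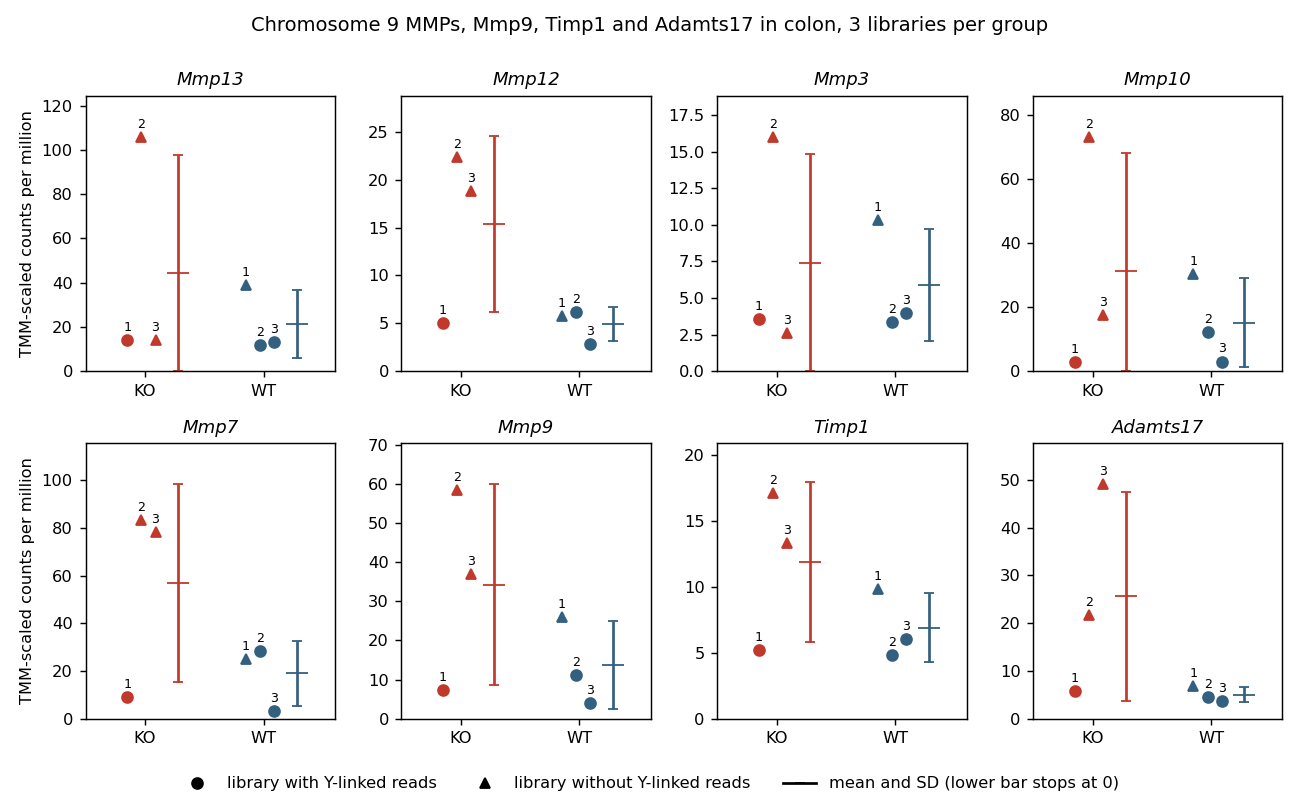
TMM-scaled CPM (y axis, linear) in each colon library for the 5 expressed chromosome 9 MMPs, Mmp9, Timp1 and Adamts17, with KO left of WT. Numbers give the replicate, shapes the presence of Y-linked reads, and bars the mean and SD of 3 libraries. KO replicate 2 is the highest library in 7 of the 8 panels, and KO replicate 1 lies among or below the WT libraries in all of them.

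The libraries also differed in markers of leukocytes. The summed level of 4 neutrophil markers (S100a8, S100a9, Csf3r and Cxcr2) was 12, 66.0 and 78.7 CPM in KO and 41.9, 11.4 and 5.38 CPM in WT, with 4 of 4 genes higher in KO and none at 0 in any library. The sum was highest in KO replicates 2 and 3 and WT replicate 1, and so was Mmp9. In KO replicate 3, where the sum peaked, Mmp7 and Mmp12 stood above every WT library. Mmp3 was at its lowest there, and Mmp13 stood near its level in WT replicates 2 and 3. Macrophage markers had summed levels of 327.3, 200.5 and 200.7 CPM in KO and 282.5, 186.8 and 216.9 CPM in WT, with 4 of 4 genes higher in KO. Among the 3 libraries without Y-linked reads, KO minus WT was 1.74 for Mmp12, 1.66 for Mmp7, 0.83 for Mmp9, 0.60 for Timp1, 0.25 for Mmp10, -0.02 for Mmp13 and -0.60 for Mmp3 on the log2(CPM + 0.5) scale. Among the 3 libraries with Y-linked reads it was 0.21, -0.16, 0.13, -0.04, -1.01, 0.18 and -0.03 for the same genes in that order. In edgeR's fit with Y-linked reads as a covariate, the log2 difference was 0.45 for Mmp9, 0.41 for Mmp13, 0.31 for Timp1, -0.10 for Mmp3 and -0.28 for Mmp10. For these 5 genes and for Mmp12 and Mmp7 it lies below the difference fitted without the covariate, and each fit rests on KO replicate 1 and WT replicate 1 as the lone libraries of their genotype in a set. The part of neutrophil content in these results was not tested.

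Per length, the cluster made up 10.2%, 50.9% and 37.4% of the summed MMP level in KO and 26.4%, 21.4% and 7.01% in WT, where a level is CPM per kilobase of annotated exon. The sum over all MMPs was 180.6, 339.8 and 250.4 CPM per kilobase in KO and 237.5, 191.3 and 179.7 in WT. The TIMP sum was 81.5, 68.1 and 65.1 CPM per kilobase in KO and 94.5, 61.0 and 77.1 in WT. The ratio of the MMP sum to the TIMP sum was 2.21, 4.99 and 3.85 in KO and 2.51, 3.13 and 2.33 in WT. KO replicates 2 and 3 had the highest ratios and KO replicate 1 the lowest, so the groups overlapped. The other 4 cluster genes were under the floor. Mmp8, the neutrophil collagenase, had 1, 12 and 9 counts in KO and 4, 3 and 1 in WT. Mmp20, the enamel protease, had 0, 5 and 7 counts in KO and 1 in each WT library. Mmp27 had 7, 0 and 1 counts in KO and 2, 1 and 2 in WT. Mmp1b had 0 counts in every KO library, where a count of 0 allows up to 3, and 1, 0 and 0 in WT.

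The most abundant members per length were Mmp15, Timp2, Mmp7, Mmp2, Mmp14 and Timp3, at means of 54.9, 46.2, 35.5, 34.6, 28.6 and 15.4 CPM per kilobase over the 6 libraries. Mmp15 and Mmp14, the membrane-type MMPs 2 and 1, sit in the plasma membrane, and Mmp14 activates the precursor of gelatinase A (Mmp2) in a complex with Timp2. Mmp15 (ENSMUSG00000031790, chromosome 8, 95352268 to 95375080) stood at 252.8, 288.5 and 340.0 CPM in KO and at 290.3, 313.0 and 293.3 CPM in WT. Both the lowest and the highest of these were KO libraries, and the log2 difference was -0.02 ± 0.11 (SE, edgeR adjusted p = 0.972).

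Mmp14 (ENSMUSG00000000957, chromosome 14, 54431612 to 54445364) stood at 160.0, 189.3 and 195.9 CPM in KO and at 157.8, 160.0 and 158.4 CPM in WT. It was the 1 tested member whose groups did not overlap, by a margin that vanished on rounding between KO replicate 1 and WT replicate 2. Every KO library lay above every WT library for 1 of 37 members, against 4.55% of all tested genes, and below for 0 of 37, against 5.04%. Together this is 2.7% of the members, against 9.58% of all tested genes. The log2 difference of Mmp14 was 0.20 ± 0.09 (SE, edgeR adjusted p = 0.829), with a range of 0.14 to 0.28 when single libraries were left out. It was 0.29 among the libraries without Y-linked reads and 0.01 among those with them.

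Mmp2 (ENSMUSG00000031740, chromosome 8, 92827291 to 92853420), made mainly by fibroblasts, stood at 141.8, 95.8 and 73.8 CPM in KO and at 146.7, 94.8 and 147.8 CPM in WT (log2 difference -0.32 ± 0.28, SE, edgeR adjusted p = 0.858). Timp2 (ENSMUSG00000017466, chromosome 11, 118301069 to 118355740), which both blocks MMPs and helps to activate Mmp2, stood at 209.1, 146.8 and 144.6 CPM in KO and at 225.2, 156.5 and 196.8 CPM in WT. Its log2 difference was -0.21 ± 0.19 (SE, edgeR adjusted p = 0.860). Timp3 (ENSMUSG00000020044, chromosome 10, 86300372 to 86349506), which binds to the matrix and also inhibits ADAMTS enzymes and ADAM17, stood at 154.5, 83.1 and 95.7 CPM in KO and at 171.2, 109.1 and 140.5 CPM in WT. Its difference was -0.34 ± 0.27 (SE, log2, edgeR adjusted p = 0.850), and 21.3% of its exon bases lie opposite an exon of Syn3, whose reads cannot be told apart here. Timp4 stood at 17.7, 5.95 and 7.08 CPM in KO and at 27.4, 12 and 15.3 CPM in WT, a log2 difference of -0.83 ± 0.52 (SE, edgeR adjusted p = 0.829). Timp2, Timp3 and Timp4 were each highest in WT replicate 1, with KO replicate 1 second, whereas Timp1 was low in KO replicate 1. When single libraries were left out, the log2 difference ran from -0.62 to -0.12 for Mmp2, from -0.41 to -0.07 for Timp2, from -0.65 to -0.16 for Timp3 and from -1.49 to -0.40 for Timp4.

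**Figure D3:**
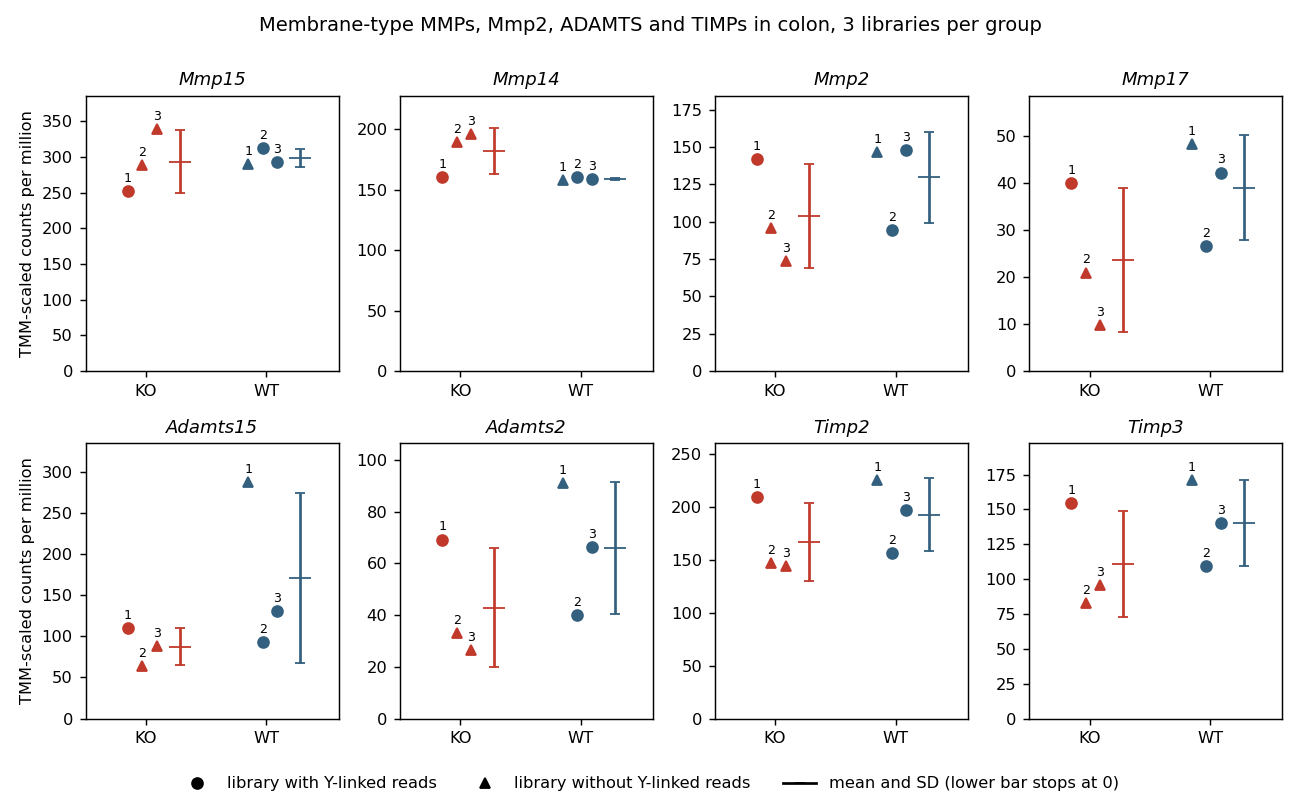
TMM-scaled CPM (y axis, linear, from 0) in each colon library for Mmp15, Mmp14, Mmp2, Mmp17, Adamts15, Adamts2, Timp2 and Timp3, with KO left of WT. Numbers give the replicate, shapes the presence of Y-linked reads, and bars the mean and SD of 3 libraries. Mmp14 spans 157.8 to 160.0 CPM in WT, while for Mmp17, Adamts2, Timp2 and Timp3 KO replicate 1 lies among the WT libraries and above the other KO libraries.

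The remaining membrane-anchored and other MMPs were lower in abundance. Mmp17, held in the membrane by a lipid anchor, stood at 40.1, 21.0 and 9.80 CPM in KO and at 48.3, 26.7 and 42.3 CPM in WT, a log2 difference of -0.72 ± 0.51 (SE, edgeR adjusted p = 0.834). Mmp16, membrane-type MMP 3, stood at 2.55, 0.926 and 0.681 CPM in KO and at 6.27, 1.07 and 3.13 CPM in WT, with the highest value in WT replicate 1. Its difference of -1.32 ± 0.76 (SE, log2, edgeR adjusted p = 0.829) was -0.58 without that library. Mmp28, or epilysin, stood at 40.9, 59.6 and 48.9 CPM in KO and at 36.8, 57.0 and 43.3 CPM in WT, with groups that overlapped almost fully. Its log2 difference was 0.13 ± 0.21 (SE, edgeR adjusted p = 0.916). Mmp11, a stromelysin made by fibroblasts of tumors, ranged from 18.5 to 25.8 CPM in KO and from 12.8 to 20.4 CPM in WT. Mmp11, Mmp19, Mmp23, Mmp24 and Mmp25 had log2 differences between -0.34 and 0.25.

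Of the 17 expressed ADAMTS genes, 11 had their highest level in WT replicate 1, against 3141 of all 17195 tested genes. KO replicate 3 held the lowest level of 7 ADAMTS genes, against 4115 of all tested genes. The median log2 difference of the 16 tested ADAMTS genes was -0.40 and became 0.02 without WT replicate 1. Adamts15 (ENSMUSG00000033453, chromosome 9, 30899155 to 30922452), the most abundant ADAMTS per length, cuts the proteoglycans aggrecan and versican. It stood at 109.8, 64.4 and 87.7 CPM in KO and at 287.6, 93.4 and 131.3 CPM in WT. The difference was -0.97 ± 0.44 (SE, log2, edgeR adjusted p = 0.829), and -0.35 without WT replicate 1. It was -1.93 among the libraries without Y-linked reads and -0.01 among those with them. Of the 6 tested proteoglycan-cleaving ADAMTS genes, 5 had a lower mean in KO (Adamts1, Adamts5, Adamts8, Adamts9 and Adamts15), with a median of -0.65 that became -0.02 without WT replicate 1. WT replicate 1 is also the library with squamous keratins, and the part of squamous tissue in these ADAMTS values was not tested.

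Adamts2, which removes the amino-terminal propeptide of fibrillar procollagens, stood at 69.2, 32.9 and 26.4 CPM in KO and at 91.1, 40.0 and 66.4 CPM in WT (log2 difference -0.62 ± 0.45, SE, edgeR adjusted p = 0.836). Fibroblast markers had a similar order, with summed levels of 1172, 916.4 and 756.1 CPM in KO and 1199, 834.3 and 1069 CPM in WT, and 5 of 5 markers lower in KO. Smooth muscle markers had summed levels from 685.3 (replicate 3) to 1170 CPM (replicate 1) in KO and from 1058 (replicate 2) to 1198 CPM (replicate 1) in WT, with 4 of 4 lower in KO. Endothelial markers had 300.1, 188.1 and 204.5 CPM in KO and 284.0, 214.4 and 277.7 CPM in WT, with 3 of 3 lower in KO. None of the markers of these 3 cell types was at 0 in any library, and their part in the ADAMTS values was not tested. Skeletal muscle markers summed to 25.8, 27.8 and 14.8 CPM in KO and to 77.1, 44.0 and 56.1 CPM in WT. Among them, Acta1 passed DESeq2's test (adjusted p = 1.71e-05) and not edgeR's (adjusted p = 0.829). Adipocyte markers summed to 66.6, 29.6 and 41.8 CPM in KO and to 35.7, 29.7 and 34.1 CPM in WT. The part of these tissues was not tested either. Adamts7, which cuts cartilage oligomeric matrix protein, stood at 12.6, 16.5 and 12 CPM in KO and at 13.4, 8.56 and 11.1 CPM in WT (log2 difference 0.31 ± 0.24, SE, edgeR adjusted p = 0.845). Adamts13, which cuts von Willebrand factor in blood, stood at 1.79, 0.794 and 0.817 CPM in KO and at 1.66, 1.47 and 2.13 CPM in WT (log2 difference -0.62 ± 0.41, SE, edgeR adjusted p = 0.829). Adamts10, whose human counterpart acts on fibrillin microfibrils, stood at 59.0, 38.9 and 17.7 CPM in KO and at 41.6, 35.2 and 44.5 CPM in WT. KO libraries held both the highest and the lowest Adamts10 level, and its difference was -0.07 ± 0.41 (SE, log2, edgeR adjusted p = 0.976). The other tested ADAMTS genes had log2 differences between -0.81 (Adamts8) and 0.34 (Adamts3). Adamts20 was expressed and not tested, with 20, 8 and 5 counts in KO and 26, 6 and 8 in WT. Adamts16 had 1, 13 and 15 counts in KO and 6, 0 and 4 in WT, under the floor. Adamts18 was also under it, with 10, 12 and 1 counts in KO and 2, 13 and 8 in WT.

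Adamts17 (ENSMUSG00000058145, chromosome 7, 66839735 to 67153171) had the largest log2 difference and the smallest p of the 37 tested members. Mutations of its human counterpart cause a form of Weill-Marchesani syndrome, a disorder of fibrillin-rich connective tissue. Its level was 5.87, 21.8 and 49.2 CPM in KO and 6.74, 4.55 and 3.63 CPM in WT. KO replicates 2 and 3 lay above every WT library, and KO replicate 1 lay between WT replicates 1 and 2. The log2 difference was 2.36 ± 0.75 (SE) with an unadjusted p of 0.0193 (edgeR adjusted p = 0.829), and DESeq2 gave an adjusted p of 0.266. Leaving out KO replicate 3 gave 1.48, and leaving out KO replicate 1 gave 2.83. With Y-linked reads as a covariate the difference was 1.50. It was 2.20 among the libraries without Y-linked reads and 0.48 among those with them, both on the log2(CPM + 0.5) scale.

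**Figure D4:**
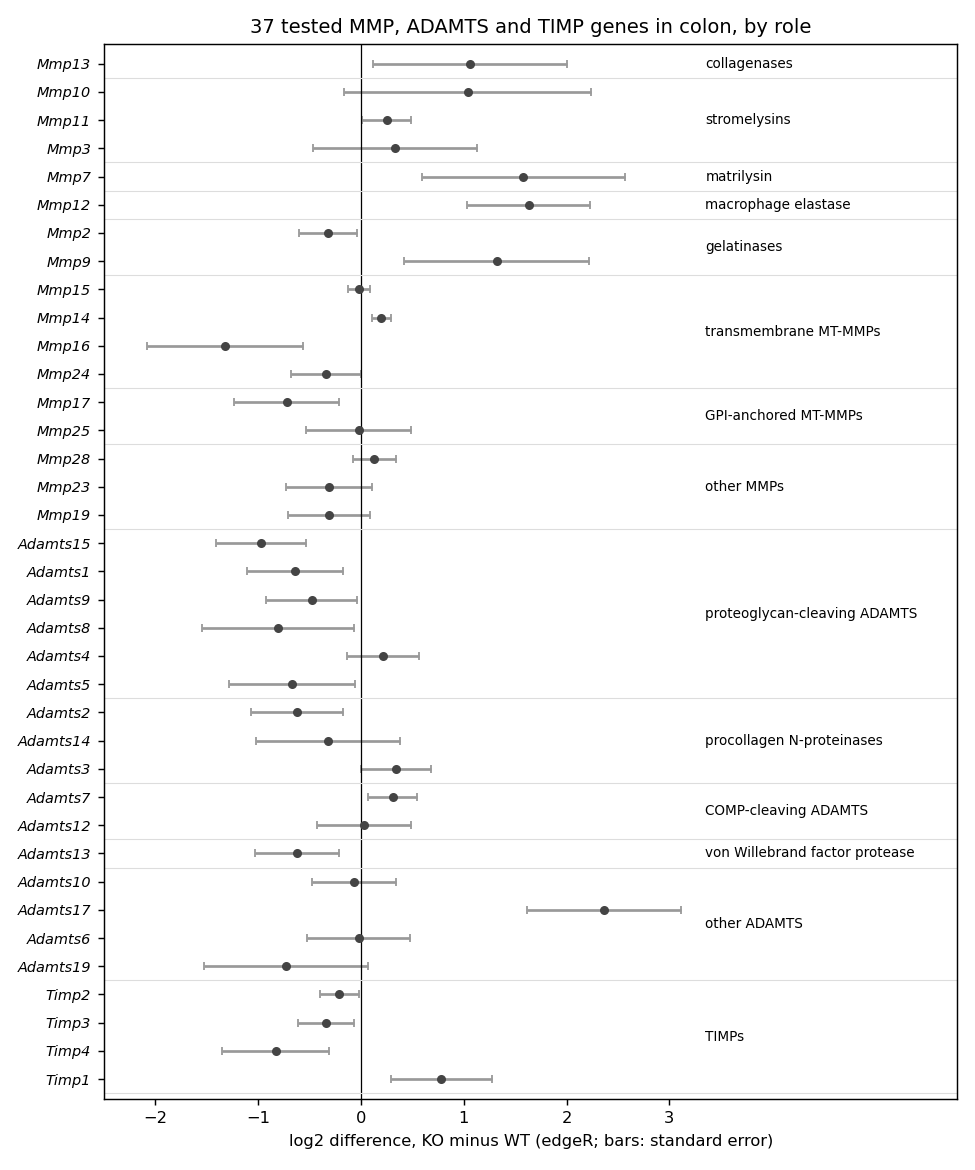
Fitted log2 difference, KO minus WT (x axis), for the 37 tested members grouped by role, with bars for the standard error. Adamts17 lies farthest to the right at 2.36, followed by Mmp12 at 1.63 and Mmp7 at 1.58, while Mmp16 lies farthest to the left at -1.32.

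Across the family, 0 of 37 tested members passed edgeR's test at an adjusted p of 0.05, against a background of 0% of all 17195 tested genes. An unadjusted p under 0.05 was found for 2 members (Adamts17 and Mmp12), or 5.41%, against 5.06% of all tested genes in edgeR. DESeq2 called 0 members and 0.105% of all genes, with 3 members at an unadjusted p under 0.05 (Adamts15, Adamts17 and Mmp12), against 5.34% of all genes. Limma-voom called 0 members and 0% of all genes, with 0 members at an unadjusted p under 0.05, against 4.81%. Without KO replicate 1, 15 of 37 members had an unadjusted p under 0.05 in edgeR, as did 3673 of 17539 tested genes, and 0 genes passed after adjustment. That fit has no KO library with Y-linked reads, while WT replicates 2 and 3 have them. Genotype and the presence of Y-linked reads therefore cannot be fully told apart in it. Without KO replicate 3, without WT replicate 3, and with Y-linked reads as a covariate, 0 members had an unadjusted p under 0.05. Among all tested genes, 445 of 17611, 307 of 17608 and 567 of 17195 did, in that order. A positive log2 difference was found for 15 of 37 members (40.5%), against 49.0% of all tested genes. The median log2 difference was -0.07 over the members and 0.00 over all tested genes. A difference of at least 1 on the log2 scale in either direction was found for 7 members (Adamts17, Mmp7, Mmp9, Mmp10, Mmp12, Mmp13 and Mmp16), or 18.9%, against 3.50% of all tested genes.

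The members varied strongly between libraries. The highest library was at least 4 times the lowest (each plus 0.5 CPM) for 15 of 37 members, or 40.5%, against 8.01% of all tested genes. The median ratio was 3.27 over the members and 1.44 over all tested genes. By class, the median ratio was 8.66 for the chromosome 9 MMPs, 2.14 for the other MMPs, 3.34 for ADAMTS genes and 2.68 for TIMPs. WT replicate 1 was the highest library for 17 of the 38 expressed members, and for 3141 of all 17195 tested genes. KO replicate 2 was highest for 11 members and for 2882 of all tested genes, and WT replicate 2 for 0 members and 2644 of all tested genes. KO replicate 3 was lowest for 15 members and for 4115 of all tested genes.

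**Figure D5:**
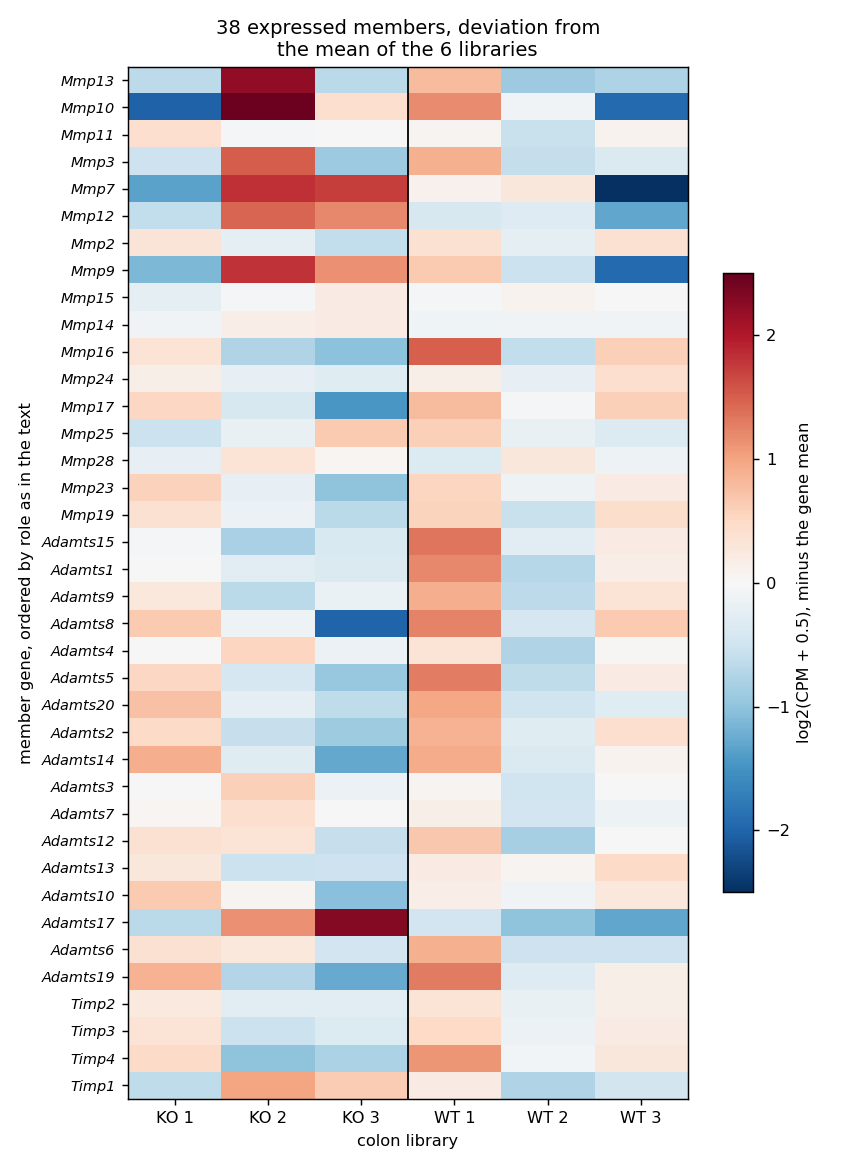
Deviation of each of the 38 expressed members (rows, by role) from its mean over the 6 colon libraries, on the log2(CPM + 0.5) scale, with KO libraries left of the black line and WT libraries right of it. Red is above and blue below the gene's mean, and colours stop at 2.5 in either direction. Mmp13, Mmp10, Mmp3, Mmp7, Mmp12 and Mmp9 are reddest in KO replicate 2, and most ADAMTS genes are reddest in WT replicate 1.

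Genes that regulate or accompany these proteases were read from 7 lists, and 0 genes of any list passed edgeR's or DESeq2's test over all genes. Cytokines known to induce MMPs had a higher mean in KO for 6 of 7 tested genes, with a median log2 difference of 1.36. Il1a, an alarmin released by damaged epithelium, stood at 1.91, 10.3 and 6.94 CPM in KO and at 2.84, 1.07 and 0.625 CPM in WT. It had a difference of 2.06 ± 0.77 (SE, log2, edgeR adjusted p = 0.829). Osm, which acts on stromal cells of inflamed gut, stood at 1.91, 9.52 and 4.49 CPM in KO and at 3.67, 0.936 and 1.38 CPM in WT. Lif, a related cytokine, stood at 13.5, 29.2 and 17.8 CPM in KO and at 15.7, 14.0 and 13.9 CPM in WT. Of the 7 tested cytokines, 6 were highest in KO replicate 2, against 2882 of all 17195 tested genes. Tgfb1 was highest in WT replicate 1. The other 3 (Il6, Il17a and Il22) were too low to test, with at most 12 counts in any library. With Y-linked reads as a covariate the log2 difference was 1.42 for Il1a, 0.84 for Osm and 0.27 for Lif. The cytokine values were not tested against the MMP values.

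A list of AP-1, NF-kB and ETS factors had 7 of 14 genes with a higher mean in KO and a median of 0.00. Groups did not overlap for 1 of the 14 genes, Fosl2, against 9.58% of all tested genes. Fosl2, an AP-1 subunit, stood at 330.8, 304.7 and 322.7 CPM in KO and at 338.0, 369.8 and 358.9 CPM in WT (log2 difference -0.15 ± 0.06, SE, edgeR adjusted p = 0.829). Fosb, another subunit, stood at 11.4, 16.5 and 8.17 CPM in KO and at 92.4, 11.4 and 21.4 CPM in WT, with the highest value in WT replicate 1. Ets2, an ETS factor, had a difference of 0.14 ± 0.11 (SE, log2).

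In the plasminogen system, whose product plasmin activates MMP precursors, 4 of 6 tested genes had a higher mean in KO. Plat, tissue plasminogen activator, stood at 38.9, 112.8 and 104.0 CPM in KO and at 67.2, 37.8 and 32.6 CPM in WT, a difference of 0.89 ± 0.46 (SE, log2, edgeR adjusted p = 0.829). Serpinf2, the plasmin inhibitor, differed by 1.15 ± 0.65 (SE, log2). With Y-linked reads as a covariate these were 0.43 for Plat and 0.50 for Serpinf2. Of 9 ADAM proteases, 5 had a higher mean in KO, with Adam12 at 1.81 ± 1.06, the sheddase Adam10 at 0.19 ± 0.11 and Adam15 at -0.28 ± 0.13 (SE, log2). Adam12 stood at 0.75 with Y-linked reads as a covariate. Of 6 ADAMTS-like proteins, which resemble ADAMTS enzymes without the protease domain, 4 had a lower mean in KO. Adamtsl4, Adamtsl1 and Adamtsl5 differed by -0.56 ± 0.36, -1.13 ± 0.75 and -0.38 ± 0.31 (SE, log2). Among regulators of activation and clearance, 7 of 10 tested genes had a higher mean in KO, with Thbs2 at 0.78 ± 0.56, Thbs1 at 0.27 ± 0.27 and the uptake receptor Lrp1 at -0.39 ± 0.38 (SE, log2). Matrix substrates had 3 of 8 tested genes higher in KO, with Comp at 0.61 ± 0.51 and Tnc at -0.26 ± 0.38 (SE, log2).

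A ceiling on counts limits some of these values. The highest count per annotated exon base, among genes with a mean of 10 or more counts and 300 or more exon bases, was between 0.919 and 0.973 in every library. Above 0.3 counts per base, differences may therefore be compressed, which touched 5 members in some library (Mmp15, Timp2, Mmp2, Mmp7 and Mmp10). Mmp7 reached 0.59 counts per base in KO replicate 2, and Mmp15 stood above 0.3 in every library. The epithelial markers also stood above 0.3 in every library, and each smooth muscle marker did so in some library. Some fibroblast, macrophage and neutrophil markers passed it too. Examples are Col1a1 with 3100 counts on 6563 bases in WT replicate 1 and C1qa with 542 on 1040 in KO replicate 1. S100a9 had 191 counts on 522 bases in KO replicate 3.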

How the data were processed

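The colon data were deposited as tables of whole-number counts, 1 per gene ID and library, per the file headers. For alignment and counting, the submitters' processing notes name STAR, TopHat2, RSEM, HTSeq and DESeq2 and the builds GRCm38 and mm10, without roles. Read filters, duplicate removal and use of strand are not given in the sources used here. Reads of overlapping or antisense genes therefore cannot be told apart.

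Counts were joined by gene ID and annotated with GENCODE vM21 on GRCm38, which held 30212 IDs (99.8%). The filter filterByExpr kept 17195 genes, among them 37 expressed members, and left out Adamts20. The KO minus WT difference came from the robust quasi-likelihood test of edgeR 4.0.16 (R 4.3.3) after TMM scaling. Benjamini-Hochberg adjustment ran across all 17195 genes at a threshold of 0.05. CPM are TMM-scaled counts. The scripts were tested on simulated data. DESeq2 1.42.0, voom in limma 3.58.1, other scalings and filters, a replicate block, a Y-linked covariate and leaving out each library were alternatives. Chi-square per degree of freedom between replicates of the same group was 5.58 or more, so no library was a copy of another in its group. Pairs of a KO and a WT library were not compared in this way. Values cover counting error and the spread between libraries only.

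The members and gene lists were chosen with earlier results of these data known. Values in every library are given for the TIMPs, the 6 members most abundant per exon length, the 12 with the smallest p and the most abundant member of each role group. Each of 7 partner lists gave the 3 genes with the smallest p, of which 2 genes in all are not reported here. Mmp3 and the genes under the floor were added after their values were seen. The CD8 tables list none of the members and were not used. Promoter sequences are RefSeq's, on GRCm38.p6.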

Additional observations from a re-analysis of the deposited data

How the results depend on the processing

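No tested member passed the threshold under any of the 14 alternatives, and the number of genes called was 0 in each except DESeq2, which called 18. The median member difference of -0.07 moved by less than the spread between replicates (SD 0.38) in every alternative. It ran from -0.41 to 0.06 when single libraries were left out and was -0.27 with Y-linked reads as a covariate. Of 40 named gene differences, 34 kept their direction in every alternative run. Mmp3, added later, is not among the 40. Its difference of 0.33 was -0.93 without KO replicate 2 and -0.10 with Y-linked reads as a covariate. When single libraries were left out, Mmp10 ran from -0.57 to 2.05, Mmp13 from -0.61 to 1.85, Adamts10 from -0.52 to 0.28, Mmp15 from -0.14 to 0.07, Mmp28 from -0.03 to 0.31 and Tnc from -0.58 to 0.06. With Y-linked reads as a covariate, Mmp10 stood at -0.28 and Adamts10 at 0.01, and with total counts as the scaling Mmp15 stood at 0.00. The causes were not tested.

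Without KO replicate 1, 15 of 37 members had an unadjusted p under 0.05, against 3673 of 17539 genes. In that fit no KO library has Y-linked reads, while WT replicates 2 and 3 have them. Without each other library in turn, 0 to 3 members had such a p, against 307 to 1007 of all tested genes. With the replicate block, 0 genes and 0 members were called, with 1084 genes and 4 members at an unadjusted p under 0.05. Same-numbered libraries had correlations of deviations of -0.039, 0.214 and -0.233, so the numbers were not taken as pairs. The planned comparison of CD8 members gave no value, since those tables list none. At this depth, members with a mean near 10 counts carry large counting errors, and a missing call does not show equal levels.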
